A study of Mus musculus with 4 samples.

Results

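The ZEB, SNAI and TWIST genes of the mouse genome, Zeb1, Zeb2, Snai1, Snai2, Snai3, Twist1 and Twist2, were described in a map of open chromatin of 3T3-L1 cells. They are 7 of 21829 protein-coding genes and were taken by symbol from GENCODE M21 on the assembly mm10. Around each gene, every peak and hotspot in the gene body and 50 kb to each side was taken, together with every distal peak whose nearest protein-coding start site was the gene's own. This gave 550 peaks of biosample 1, of 298793 in its list, and 195 peaks of biosample 2, of 97430.

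3T3-L1 is an immortalized line of mouse embryo fibroblasts that can turn into fat cells. It is labelled as strain C57BL/6J, with age, sex and stage unknown or not collected, and no treatment is named. The assay, DNase-seq, sequences the DNA ends left where the enzyme DNase I has cut accessible chromatin. There were 2 biosamples, each with 2 of the 4 technical libraries, and the authors pooled the libraries of a biosample into 1 list of peaks and 1 list of hotspots. Both biosamples are of the same line, and nothing in the labels separates them as cultures. With 1 list per biosample there is no spread between replicates, so no difference was tested, every order of levels is a description, and the 95% Wilson intervals cover counting error only. The lists hold no read counts, so depth was unknown. A peak is a window of 150 bp with a score, the authors' own value, which was read only within its list. A hotspot is a region of enriched cleavage of varying width. In a mixed population, fewer cells with an open site and less cutting per cell cannot be told apart.

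The 7 genes encode repressors best known from the change of epithelial cells into mesenchymal ones. ZEB1 and ZEB2 carry clusters of zinc fingers on either side of a homeodomain, the SNAI proteins carry zinc fingers behind a SNAG domain that recruits corepressors, and both families bind E-boxes of the form CACCTG. TWIST1 and TWIST2 are basic helix-loop-helix proteins that pair with E proteins such as TCF3. In the embryo the genes act in the neural crest, in gastrulation and in limb and skull mesenchyme, and Cdh1, which encodes E-cadherin, is their classic repressed target.

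The promoters of fibroblast markers were open in the line, and those of the epithelial markers used as a check were not. A promoter was called open where it had a peak no more than 1000 bp from a start site of its gene. All 10 fibroblast markers, among them Vim, Col1a1 and Pdgfra, were open in both lists. None of 5 epithelial markers (Cdh1, Epcam, Krt14, Krt18 and Cldn7) and none of 4 blood markers had a promoter peak in either list, while some other epithelial genes, Krt8 and Elf3 among them, were open and are described at the end. Of the endothelial markers Cdh5 and Pecam1 were open in both lists, 2 of 4, and of the adipocyte markers Plin1, 1 of 4. Their part in the results below was not tested.

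RefSeq promoter sequences were matched for 4 of the 7 genes, Snai1, Twist1, Twist2 and Zeb2, and are shown first because the strongest promoter peak of biosample 1 fell inside each. They are of the build GRCm38.p6, 300 bases each, 5′ to 3′ on the gene's strand, from 250 bases before to 50 after a start site. Capitals mark the 150 bases of the peak. They lie at chr2:167537945-167538244 for Snai1 (plus strand), chr12:33957421-33957720 for Twist1 (plus strand), chr1:91801211-91801510 for Twist2 (plus strand) and chr2:45110228-45110527 for Zeb2 (minus strand).
Snai1 promoter: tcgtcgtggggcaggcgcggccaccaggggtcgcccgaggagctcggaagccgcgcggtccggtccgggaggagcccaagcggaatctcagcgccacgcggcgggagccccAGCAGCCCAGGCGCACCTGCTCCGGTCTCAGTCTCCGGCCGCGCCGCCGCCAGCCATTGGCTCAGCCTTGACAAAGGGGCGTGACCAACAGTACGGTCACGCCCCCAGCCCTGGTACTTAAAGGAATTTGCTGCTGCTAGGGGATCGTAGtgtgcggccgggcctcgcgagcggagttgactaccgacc
Twist1 promoter: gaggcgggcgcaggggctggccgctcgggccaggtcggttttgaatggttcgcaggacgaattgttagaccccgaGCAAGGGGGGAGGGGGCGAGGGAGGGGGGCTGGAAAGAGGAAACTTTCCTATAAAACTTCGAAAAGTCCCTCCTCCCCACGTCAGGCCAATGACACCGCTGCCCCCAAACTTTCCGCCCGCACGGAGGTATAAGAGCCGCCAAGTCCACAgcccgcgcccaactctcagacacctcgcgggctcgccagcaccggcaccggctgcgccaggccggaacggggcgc
Twist2 promoter: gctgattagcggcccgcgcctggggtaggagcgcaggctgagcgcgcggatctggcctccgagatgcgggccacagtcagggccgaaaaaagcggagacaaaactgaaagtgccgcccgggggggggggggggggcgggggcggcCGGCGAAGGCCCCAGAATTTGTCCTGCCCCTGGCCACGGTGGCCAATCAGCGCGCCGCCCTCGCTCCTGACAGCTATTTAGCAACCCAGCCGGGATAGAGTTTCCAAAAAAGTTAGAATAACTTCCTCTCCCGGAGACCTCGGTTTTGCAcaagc
Zeb2 promoter: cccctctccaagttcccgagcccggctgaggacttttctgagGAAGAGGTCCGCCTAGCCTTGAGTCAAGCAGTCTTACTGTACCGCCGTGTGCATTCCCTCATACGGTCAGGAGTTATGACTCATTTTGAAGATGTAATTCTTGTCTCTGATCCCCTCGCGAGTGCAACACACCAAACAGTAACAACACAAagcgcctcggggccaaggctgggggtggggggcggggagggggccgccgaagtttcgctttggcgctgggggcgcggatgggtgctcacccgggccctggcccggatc

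The Snai1 peak held 1 CACCTG E-box, which began 126 bases before the start site. CACCTG on either strand occurs in 20.2% of the 32851 RefSeq promoter sequences of this length, and Snai1 was the only one of these 4 genes with a match. The Zeb2 peak held 2 AP-1 matches (TGANTCA), which began 189 and 132 bases before the start site, with a TEAD match (CATTCC) between them at 157. AP-1 matches occur in 7.81% and TEAD matches in 14.7% of all promoter sequences. The Twist1 and Twist2 sequences held no match to any of the 5 motifs searched, which also included RUNX (TGTGGTT) and CTCF. GC made up 70.0% of the Snai1 sequence, 66.0% of Twist1, 64.7% of Twist2 and 60.7% of Zeb2. A match describes letters and is not evidence of binding.

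All 7 genes were open in both lists. Among all protein-coding genes the share open in both was 51.8%, with 62.6% open in biosample 1 and 51.9% in biosample 2. The observed over expected CpG ratio in the 1000 bp around the most upstream start site was at least 0.6 in 6 of the 7 genes, Snai3 at 0.569 being the exception, against 46.6% of all genes. Of the genes with such CpG-rich promoters 80.2% were open in both lists, a share beside which the 7 of 7 should also be read.

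**Figure D1:**
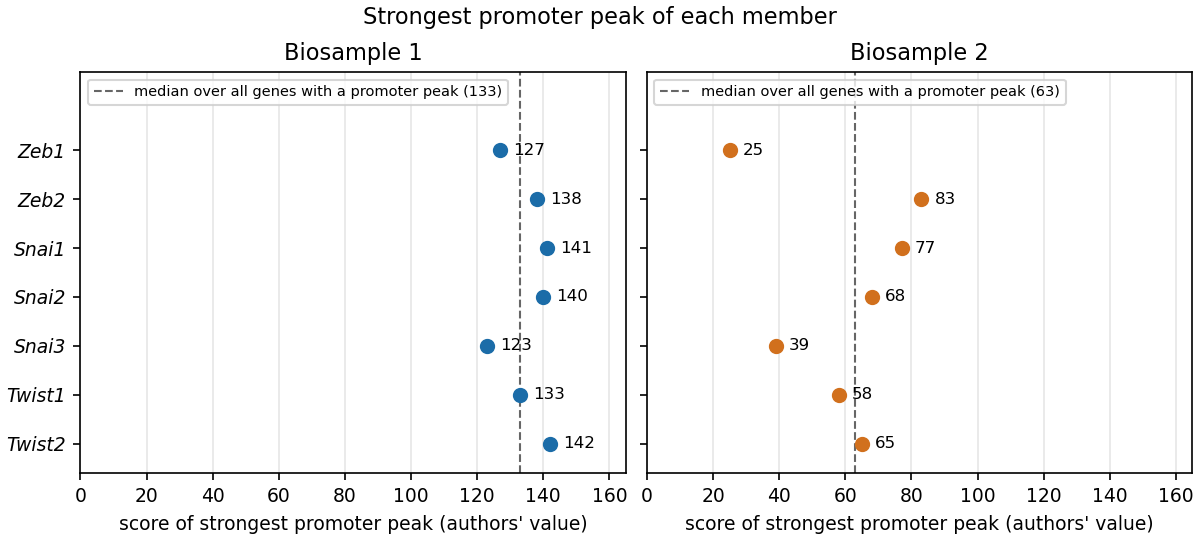
Score of the strongest promoter peak of each of the 7 genes in the peak list of biosample 1 (left) and biosample 2 (right), 1 point per gene, with the score on the x axis; the scales of the lists cannot be compared. Dashed lines give the median over all genes with a promoter peak, 133 and 63. Zeb1 and Snai3 lie lowest in both panels.

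The promoter scores put Twist2, Snai1, Snai2 and Zeb2 in the upper part of the range, Twist1 in the middle and Zeb1 and Snai3 low. In biosample 1 the strongest promoter peak scored 142 at Twist2, 141 at Snai1, 140 at Snai2, 138 at Zeb2, 133 at Twist1, 127 at Zeb1 and 123 at Snai3, beside a median of 133 over all genes with a promoter peak. In biosample 2 it scored 83 at Zeb2, 77 at Snai1, 68 at Snai2, 65 at Twist2, 58 at Twist1, 39 at Snai3 and 25 at Zeb1, beside a median of 63. Both lists put the same pair of genes, Zeb1 and Snai3, at the bottom and the same 4 above the median.

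Zeb1 was the gene on which the lists differed most in rank. Its promoter peak lay at chr18:5591676-5591825 in both lists, -113 bp from a start site (negative means upstream). In biosample 1 it stood at the 38.6th percentile of all open promoters, and in biosample 2 at the 5.76th. The hotspot over it was 806 bp wide with a −log10 q at the cap of 100 in biosample 1. In biosample 2 it was 73 bp wide with a −log10 q of 1.54. With the stronger 50% of each list alone, Zeb1 had a promoter peak in 1 list and the other 6 genes in both.

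Snai3 was open only some way upstream. Its single promoter peak, at chr8:122461256-122461405 in biosample 1, was centred at -598 bp in that list and at -618 bp in biosample 2. With a window of 500 bp around the start site Snai3 had a promoter peak in 0 lists, while the other 6 genes kept one in both. No peak of either list fell inside the Snai3 gene body.

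Snai2 was open in both lists at sites that did not overlap. Its strongest promoter peak covered chr16:14705496-14705645 in biosample 1 and chr16:14705676-14705825 in biosample 2, 30 bp apart. The hotspot of each list, 2190 bp and 914 bp wide, covered the other list's peak as well as the start site.

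Zeb2 has 17 annotated protein-coding start sites, of which the one at 45022915 had no peak in either list. The other 16 fell in 3 groups that were open in both lists. In biosample 1 the strongest peaks of the groups scored 138 (from 45110244 to 45111174), 135 (from 45112890 to 45113284) and 123 (at 45117395). In biosample 2 they scored 72, 83 and 40. The middle group was thus the strongest in biosample 2 and the downstream group in biosample 1, with the outermost start site the weakest in both. The antisense transcript Zeb2os starts among them, and DNase cutting does not tell its promoter from that of Zeb2.

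**Figure D2:**
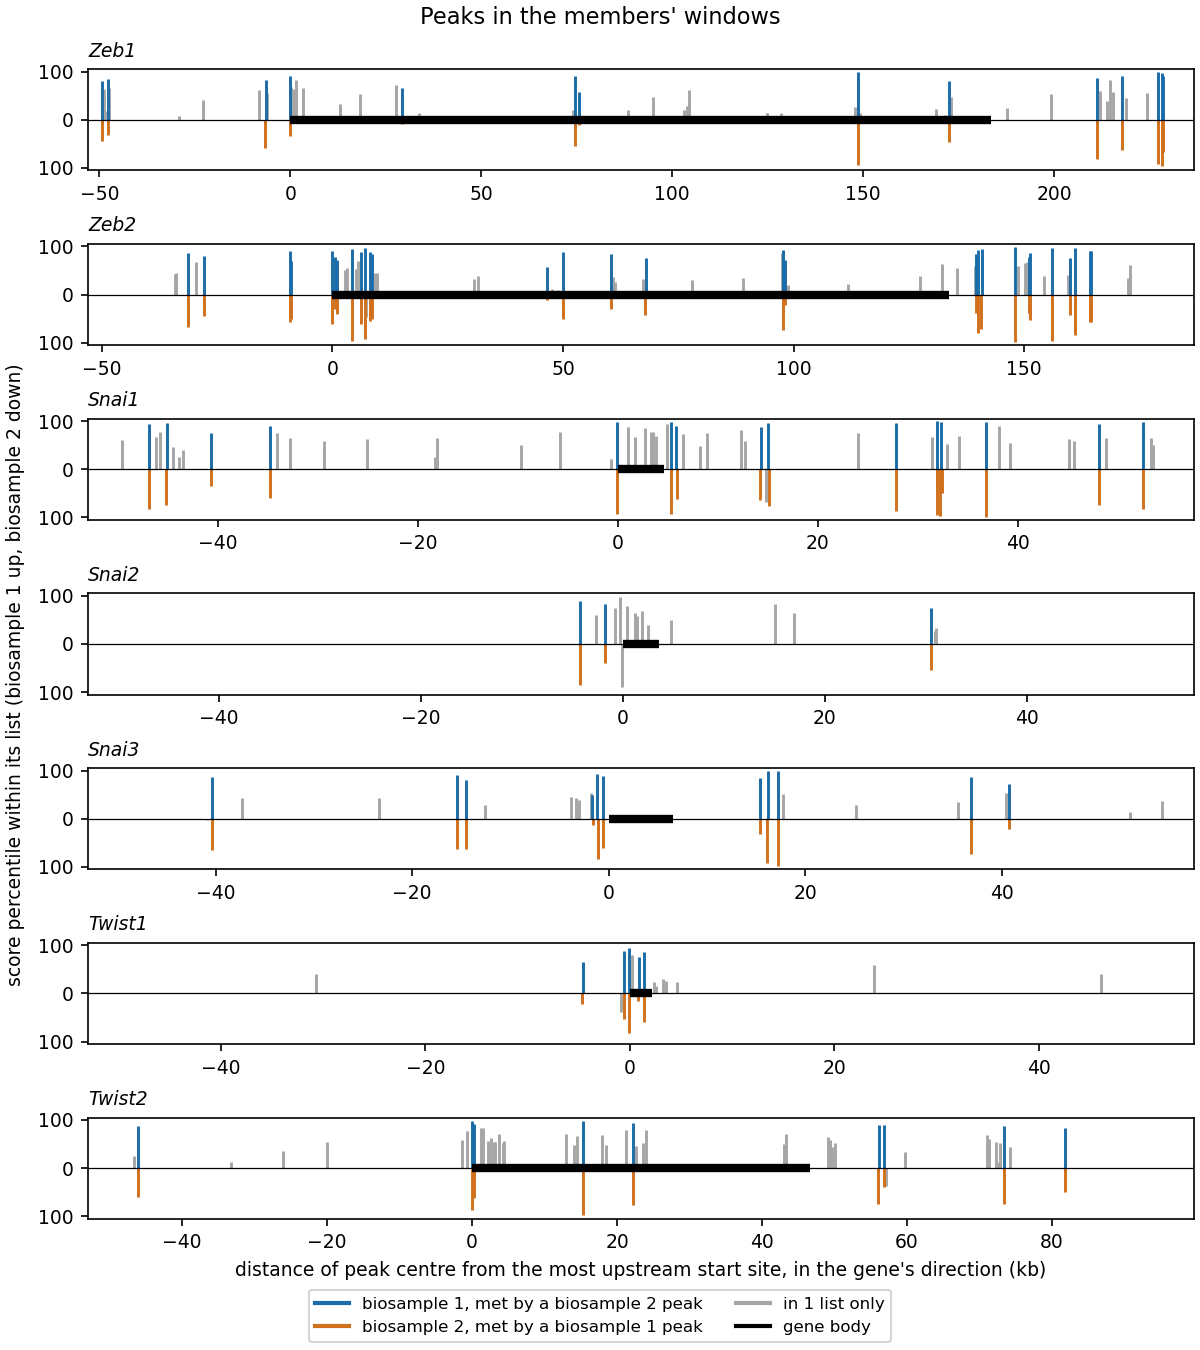
Peaks in the gene body and 50 kb to each side of each gene, by distance of the peak centre from the most upstream start site (x axis, kb, in the gene's direction) and score percentile within its list (y axis), with biosample 1 upward and biosample 2 downward. Colour marks peaks that met a peak of the other list and grey those in 1 list; the tall coloured lines past the ends of Zeb1, Zeb2 and Snai1 are described in the text.

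The windows of the 7 genes held 269 peaks of biosample 1 and 95 of biosample 2. Snai1 lay in the densest surroundings, with 53 peaks of biosample 1 or 50.7 per 100 kb, at the 97.9th percentile of all protein-coding genes. In biosample 2 it had 17 peaks, 16.2 per 100 kb, at the 95.1st percentile. The medians over all genes were 18.3 and 6.33 per 100 kb.

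Twist2 followed with 47 peaks in biosample 1 (32.1 per 100 kb) and 10 in biosample 2 (6.82 per 100 kb), at the 85.4th and 54.3rd percentiles. Zeb2 had 62 peaks (26.5 per 100 kb) in biosample 1 and 31 (13.3 per 100 kb) in biosample 2, at the 74.2nd and 89.7th percentiles. Snai3 had 24 and 12 peaks, 22.5 and 11.3 per 100 kb. Twist2 was the first of these 3 genes in biosample 1 and the last in biosample 2.

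Zeb1 had 53 peaks in biosample 1 and 15 in biosample 2, 18.7 and 5.29 per 100 kb, near the medians of all genes. Snai2 had 16 and 4 peaks, 15.5 and 3.86 per 100 kb, and Twist1 had 14 and 6, 13.7 and 5.87 per 100 kb. Both had fewer peaks per length than the median gene in both lists.

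Not every window peak belongs to the member by position. In the Snai1 window 6 peaks of biosample 1 lay at the promoters of Rnf114 and Spata2, and in the Snai3 window 4 lay at those of Mvd, Rnf166 and Ctu2. A further 8 in the Snai1 window and 8 in the Snai3 window lay in exons or introns of other genes. Of the 24 peaks of the Snai3 window, its own by position were 1 promoter peak and 6 distal peaks. The strongest peak of the Snai3 window, which scored 146 in biosample 1 and 98 in biosample 2, was the promoter of Mvd, which encodes an enzyme of cholesterol synthesis. The windows of the other 5 genes held no promoter peak of another protein-coding gene.

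Of the 269 window peaks of biosample 1, 86 met a peak of biosample 2, which is 32.0% (26.7 to 37.8), against 30.4% of the whole list. Of the 95 of biosample 2, 89 met a peak of biosample 1, which is 93.7% (86.9 to 97.1), against 93.5%. The window peaks of biosample 1 ranked higher than the list as a whole, with a median percentile of 65.0, and stronger peaks were shared more often. At the whole list's rate in each score decile 42.0% of them would have been shared, where 32.0% were. Among the genes the share of biosample 1 peaks that met the other list was 46.8% (34.9 to 59.0) at Zeb2, 45.8% (27.9 to 64.9) at Snai3 and 35.7% (16.3 to 61.2) at Twist1. It was 28.3% (18.0 to 41.6) at Snai1, 26.4% (16.4 to 39.6) at Zeb1, 19.1% (10.4 to 32.5) at Twist2 and 18.8% (6.59 to 43.0) at Snai2. Of the 11 shared peaks of the Snai3 window, only its promoter peak and 2 distal peaks were nearest to Snai3. The intervals of Zeb2 and Twist2 did not overlap, but this pair was not set beforehand and the shares by gene were not adjusted for score. The median percentile of the biosample 1 window peaks was 67.1 at Zeb2 and 58.6 at Twist2.

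Hotspots numbered 194 in biosample 1 and 88 in biosample 2. They covered 10.4% and 3.01% of the windows, against 3.96% and 1.12% of the chromosomes. The chromosomes also hold sequence far from genes, which the windows leave out. Hotspot cover was not computed for the windows of all genes, so the difference cannot be read as a trait of these genes. Cover was highest at Snai1, with 23.7% in biosample 1 and 5.61% in biosample 2, and lowest at Twist1 in biosample 1, with 5.17%, and at Snai2 in biosample 2, with 1.69%. The widest hotspot of biosample 1 in any window was 4968 bp long and ran over the Snai1 promoter and nearly its whole gene body (chr2:167537553-167542520). In biosample 2 the hotspot over the same promoter was 391 bp long, and the widest of that window, 1053 bp, lay past the gene's end. The widest hotspots of biosample 1 at Twist1 (3133 bp), Twist2 (2959 bp), Zeb2 (2726 bp) and Snai2 (2190 bp) also lay over their promoters. That at Zeb1 (2170 bp) lay past the gene's end, and that at Snai3 (2479 bp) lay at Mvd.

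**Figure D3:**
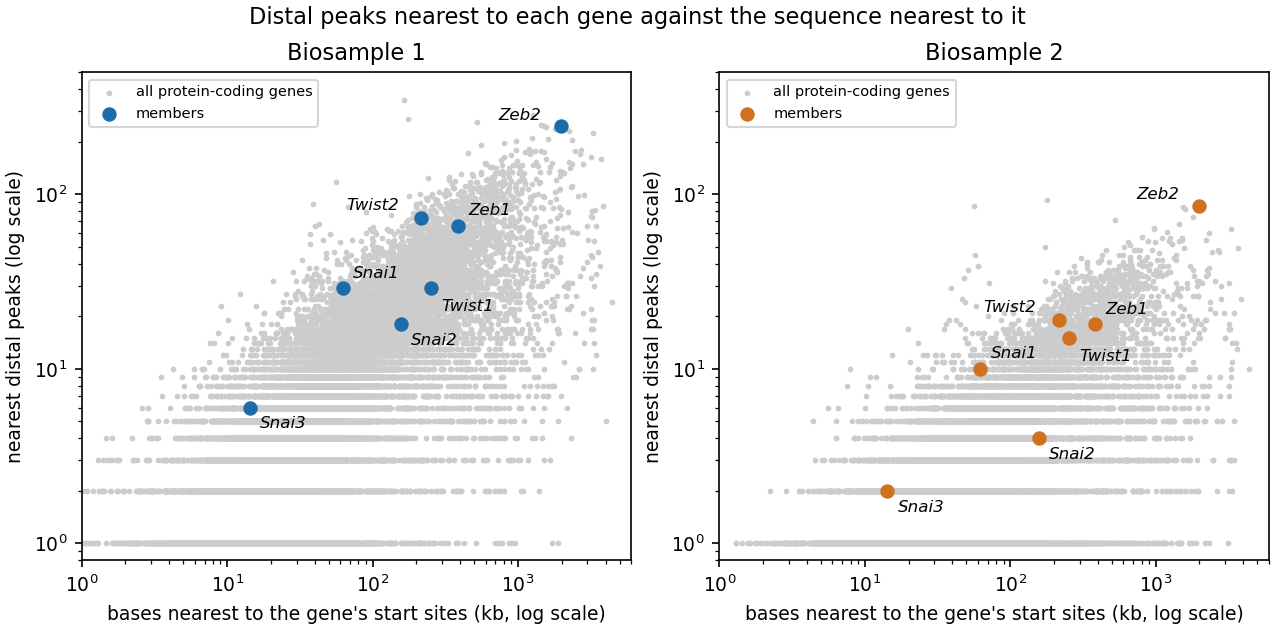
Number of distal peaks nearest to a gene (y axis, log scale) against the length of sequence nearer to its start sites than to any other gene's (x axis, kb, log scale), for biosample 1 (left) and biosample 2 (right). Grey points are protein-coding genes with at least 1 such peak and coloured points the 7 genes; Zeb2 has the most peaks of the 7 and one of the longest stretches.

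Distal peaks, farther than 1000 bp from every protein-coding start site, were counted for the nearest gene. The 7 genes had 467 in biosample 1 and 154 in biosample 2, where the median gene had 6 and 1. Zeb2 had 246 and 86, which ranked 6th and 2nd of 21829 genes, with Myc (249) just above and Cited2 (245) just below it in biosample 1. Twist2 had 73 and 19, Zeb1 66 and 18, Snai1 29 and 10, Twist1 29 and 15, Snai2 18 and 4 and Snai3 6 and 2. The other counts were tied. Twist2 was 1 of 15 genes with 73, Tgfb2 among them, and Zeb1 1 of 16 with 66, as were Pkdcc and Gipc2. Snai1 and Twist1 were among 102 genes with 29, Snai2 among 254 with 18 and Snai3 among 1012 with 6, so no neighbour in rank is named for these 4.

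The genes differ in how much sequence lies nearest to them, so the counts were also set per length. The sequence nearer to Zeb2 than to any other gene was 1981 kb long, and its 12.4 peaks per 100 kb in biosample 1 stood at the 51.4th percentile of all genes. Snai1, with 62.4 kb, had 46.4 per 100 kb, at the 95.6th percentile, and Snai3, with 14.3 kb, had 41.9, at the 94.4th. Twist2 had 33.9 (90.9th), Zeb1 17.1 (65.6th), Snai2 11.5 (48.2nd) and Twist1 11.5 (48.2nd). In biosample 2 Snai1 (96.0th), Snai3 (94.4th) and Twist2 (85.8th) again stood highest. Twist1 stood at the 73.4th percentile there, Zeb1 at the 65.0th, Zeb2 at the 62.6th and Snai2 at the 48.1st. Pooled over the sequence nearest to the 7 genes the density was 15.2 and 5.02 per 100 kb, against 9.71 and 2.86 for all genes pooled. Pooling weighs each gene by the length of that sequence, so these values are not those of a typical gene. Zeb2, with 12.4 per 100 kb in biosample 1, lay above 9.71 yet at the 51.4th percentile.

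**Figure D4:**
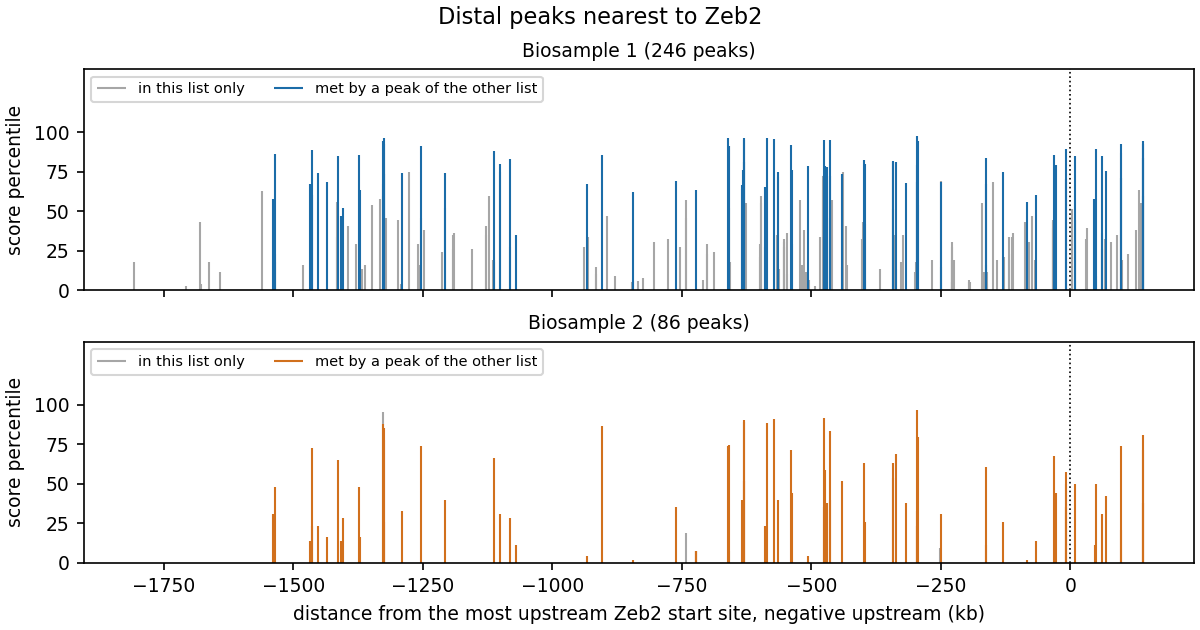
The distal peaks nearest to Zeb2 by distance from its most upstream start site (x axis, kb, negative upstream) and score percentile within the list (y axis), for biosample 1 (246 peaks, above) and biosample 2 (86 peaks, below). Coloured lines met a peak of the other list and grey lines did not; the tallest lines stand in groups between 250 and 750 kb and between 1250 and 1500 kb upstream.

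Zeb2, whose product also acts in neural crest and in nerve and blood cells, had most of its distal peaks in the gene-poor stretch upstream. That stretch also makes up most of the sequence nearest to Zeb2, and the counts by side were not set per length. Of the 246 peaks of biosample 1, 217 lay upstream and 29 downstream of the outermost start site, and the farthest was 1807 kb away. By steps of 250 kb away from the gene the upstream peaks numbered 41, 43, 48, 17, 20, 37, 10 and 1 in biosample 1. In biosample 2 they numbered 10, 19, 19, 4, 5, 17, 2 and 0, which follows the same pattern of an inner group and an outer one between 1250 and 1500 kb. The strongest shared peaks lay at chr2:45412756-45412905 (scores 141 and 85 in biosamples 1 and 2, at -295 kb), chr2:45689116-45689265 (137 and 71, at -572 kb) and chr2:45593896-45594045 (135 and 72, at -477 kb), all intergenic. With start sites of every gene type counted, non-coding genes took over most of them and 30 of the 246 stayed nearest to Zeb2.

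The strongest peak of the whole Zeb2 window lay past the gene's other end. It covered chr2:44969336-44969485 and scored 146 in biosample 1 (99.3rd percentile) and 92 in biosample 2 (98.1st percentile). It was 1 of 15 peaks of biosample 1 in the window, 8 of them shared, that were nearest to the start of the neighbouring gene Gtdc1. The lists hold nothing but distance that ties this stretch to either gene.

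Zeb1, a repressor of Cdh1 and of the miR-200 genes, had most of its distal peaks and its strongest shared ones inside and past its gene. Of the 66 distal peaks of biosample 1, 22 lay upstream and 44 downstream of the outermost start site. The gene body is the longest part of the window, and the counts by part were not set per length. Its introns held 25 peaks of biosample 1, of which 5 met a biosample 2 peak, and 6 of biosample 2. The strongest shared sites were chr18:5820016-5820165 (scores 141 and 81 in biosamples 1 and 2, 228 kb from the start), the intronic chr18:5740476-5740625 (145 and 76, 149 kb) and chr18:5818996-5819145 (143 and 72, 227 kb). Each of the 3 scored above the gene's own promoter in both lists.

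Snai1, which is needed for gastrulation in the mouse, had its distal peaks almost all downstream. Of its 29 in biosample 1, 27 lay downstream, and of its 10 in biosample 2 all 10. Upstream peaks nearer to the Rnf114 start were counted for Rnf114, and the counts by side were not set per length. The strongest shared peaks were chr2:167574936-167575085 (scores 141 and 94 in biosamples 1 and 2, 36.8 kb from the start), chr2:167570416-167570565 (142 and 90, 32.3 kb) and chr2:167570096-167570245 (146 and 83, 32.0 kb). All 3 lay within the non-coding gene Gm11476, which held 13 of the 29 peaks of biosample 1 and 6 of the 10 of biosample 2. With start sites of every gene type counted, 9 of the 29 and 2 of the 10 stayed nearest to Snai1.

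Snai2, a neural crest regulator, was open around its start site and little elsewhere. Within 5 kb of the start site lay 11 of its 16 window peaks of biosample 1 and 3 of 4 of biosample 2. Its strongest shared distal peak covered chr16:14701496-14701645 (scores 121 and 60 in biosamples 1 and 2, at -4.28 kb), followed by chr16:14736256-14736405 (95 and 35, 30.5 kb downstream) and chr16:14703976-14704125 (112 and 28, at -1.80 kb). The 200 bp around the first held a CTCF match. Snai3, known in the mouse from skeletal muscle and thymus, had its 6 distal peaks of biosample 1 all within 4 kb upstream. Only 2 of them were shared, chr8:122461816-122461965 (131 and 60, at -1.16 kb) and chr8:122462336-122462485 (64 and 17, at -1.68 kb). The first of them scored above the Snai3 promoter peak, 131 against 123 in biosample 1 and 60 against 39 in biosample 2.

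Twist1, needed for skull and limb mesenchyme, had its distal peaks on the downstream side, where Hdac9 follows. Of 29 peaks of biosample 1, 28 lay downstream, and 15 of the 29 lay inside Hdac9, 8 of them shared. In biosample 2, 9 of 15 lay inside Hdac9. Upstream sequence nearer to the Ferd3l start was counted for Ferd3l, so most of the sequence nearest to Twist1 lay downstream. The counts by side were not set per length. The strongest shared peak was intergenic, chr12:34041056-34041205 (scores 143 and 67 in biosamples 1 and 2, 83.5 kb from the start). Next came chr12:34076196-34076345 in an Hdac9 intron (130 and 70, 119 kb) and chr12:34040276-34040425 (122 and 48, 82.7 kb). The first scored above the Twist1 promoter in both lists. Parts of Hdac9 are known in the mouse as Twist1 enhancers, which these data do not address.

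Twist2, a dermis regulator, had 35 distal peaks upstream and 38 downstream of its start in biosample 1. The strongest shared peaks were chr1:91692856-91693005 (scores 144 and 86 in biosamples 1 and 2, at -109 kb), the intronic chr1:91816736-91816885 (142 and 85, 15.4 kb) and chr1:91693176-91693325 (146 and 77, at -108 kb). The upstream pair belonged to a cluster of 9 peaks of biosample 1 between 100 and 110 kb away, of which 6 were shared. Each of the 3 scored at or above the Twist2 promoter in biosample 1 (142) and above it in biosample 2 (65). The non-coding gene Gm29100 also lies over the strongest promoter peak of biosample 1. With start sites of every gene type counted, 12 of 73 distal peaks of biosample 1 and 4 of 19 of biosample 2 stayed nearest to Twist2.

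Of the 20 strongest shared distal peaks named for the 7 genes, 11 held a searched motif inside the 150 bp, with at least 1 at each gene. The like share over all shared distal peaks was not computed, so the count cannot be read as a trait of these sites. For the 4 genes whose promoters are shown above, 1 such peak is shown with its motif letters. At Snai1 and Twist2 it is the one with the most matches and not the highest ranked. The higher ranked chr2:167574936-167575085 and chr1:91692856-91693005 each held 1 AP-1 match and no other searched motif. At Zeb2 the peak shown is the only 1 of the 3 named that held a searched motif. The highest ranked there, chr2:45412756-45412905, held none. Sequences are of the plus strand of mm10, 5′ to 3′, and capitals mark AP-1 (TGANTCA) and TEAD (CATTCC, here as GGAATG on the plus strand) matches. They cover chr2:167570416-167570565, chr12:34041056-34041205, chr1:91816736-91816885 and chr2:45689116-45689265.
Snai1 distal: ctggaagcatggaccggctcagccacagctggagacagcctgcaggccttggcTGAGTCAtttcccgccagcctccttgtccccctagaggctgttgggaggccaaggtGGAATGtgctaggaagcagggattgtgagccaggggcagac
Twist1 distal: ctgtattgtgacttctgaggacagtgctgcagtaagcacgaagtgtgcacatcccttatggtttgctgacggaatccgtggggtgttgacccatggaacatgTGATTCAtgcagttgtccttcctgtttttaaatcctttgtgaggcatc
Twist2 distal: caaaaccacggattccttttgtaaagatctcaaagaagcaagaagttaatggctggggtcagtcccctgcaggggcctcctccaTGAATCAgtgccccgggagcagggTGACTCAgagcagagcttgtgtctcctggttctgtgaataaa
Zeb2 distal: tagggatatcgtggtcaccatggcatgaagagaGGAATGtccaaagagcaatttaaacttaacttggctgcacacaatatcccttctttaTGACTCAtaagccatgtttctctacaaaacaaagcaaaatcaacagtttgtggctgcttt

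The Snai1 and Zeb2 sites each held 1 AP-1 and 1 TEAD match, the Twist1 site 1 AP-1 match and the Twist2 site 2. None of the 4 held CACCTG.

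Across all 467 distal peaks of biosample 1, 5 motifs were counted on either strand in the 200 bp around the peak centre. The E-box CACCTG, the letters that ZEB and SNAI proteins bind, was in 43 windows or 9.21% (6.91 to 12.2), against 10.1% of all distal peaks of that list. In the 150 bp of the peak itself it was in 24 or 5.14% (3.48 to 7.53), against 7.65%, so that the share of all distal peaks lay inside the interval at 200 bp and just above it at 150 bp. A CTCF match can contain CACCTG, and the other motifs cannot.

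AP-1 matches were in 141 windows or 30.2% (26.2 to 34.5), against 26.8%, and TEAD matches in 100 or 21.4% (17.9 to 25.4), against 17.0%. RUNX matches were in 33 or 7.07% (5.08 to 9.76), against 9.7%. The CTCF consensus was in 4 or 0.857% (0.334 to 2.18), against 4.23%. The intervals of TEAD and CTCF did not hold the share of all distal peaks, TEAD lying above it and CTCF below. Of the 467 windows 41 overlapped another, so 1 match can be counted more than once, and the intervals, which take the windows as independent, are too narrow.

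In the 140 distal peaks that met a biosample 2 peak the share with AP-1 was 45.0% (37.0 to 53.3), against 35.5% of all shared distal peaks. For CTCF it was 2.14% (0.731 to 6.11), against 9.52%, and for RUNX 4.29% (1.98 to 9.03), against 10.2%. TEAD was in 23.6% (17.3 to 31.2) of these, against 18.6%, and in 20.8% (15.1 to 27.9) of the members' distal peaks of biosample 2, against 18.3%, so both of these intervals held the share of all distal peaks. These 140 were 30.0% (26.0 to 34.3) of the members' 467, against 27.9% of all distal peaks of biosample 1. By gene, AP-1 was in 34.8% of the windows at Zeb1, 34.1% at Zeb2, 31.0% at Twist1, 44.4% at Snai2, 17.2% at Snai1 and 15.1% at Twist2, and in 1 of 6 at Snai3. The gene with the most distal peaks, Zeb2, held 84 of the 141 windows with AP-1.

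**Figure D5:**
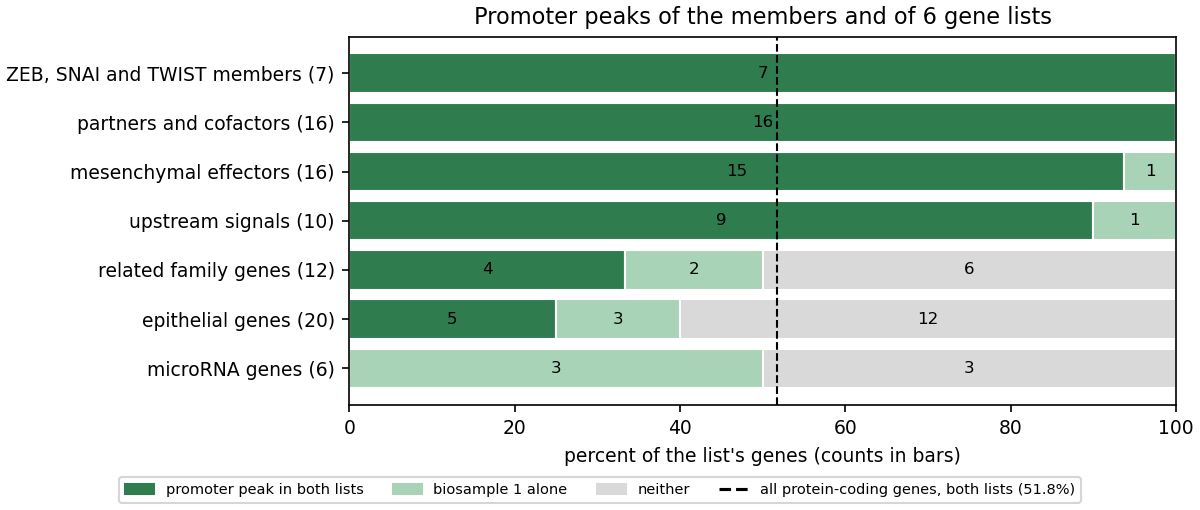
Share of each gene list (x axis, percent, with counts in the bars) open at the promoter in both peak lists, in that of biosample 1 alone or in neither, for the 7 genes and 6 lists of genes that work with, under or against them. The dashed line is the share of all protein-coding genes open in both lists, 51.8%; microRNA genes are not among these.

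Genes that work with these repressors were open, and many epithelial genes that they are known to act on or that oppose them were not. The partners and cofactors, among them E proteins, ID proteins, corepressors and SMADs, were open in both lists in 16 of 16 cases. The highest were Tcf3, an E protein that pairs with TWIST (scores 149 and 96 in biosamples 1 and 2), the corepressor gene Rcor1 (146 and 94), and Id2 (146 and 91) and Id1 (143 and 88), which encode inhibitors of helix-loop-helix pairing. Mesenchymal effectors were open in both lists in 15 of 16 cases, with Vim, Col1a2, S100a4 and Col1a1 highest, and Tgfbi in biosample 1 alone. Upstream signals were open in both in 9 of 10, with Notch1 in biosample 1 alone. All genes together gave 51.8%, and those with CpG-rich promoters 80.2%. How many genes of these lists have such promoters was not counted.

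Of 20 epithelial genes that these repressors are known to act on or that oppose them, 5 were open in both lists, 3 were open only in biosample 1 and 12 had no promoter peak. Elf3 (scores 120 and 62 in biosamples 1 and 2), Krt8 (125 and 45), Llgl2 (121 and 44) and Grhl2 (91 and 24) were highest. Elf3 encodes an epithelial ETS factor, Krt8 a keratin, Llgl2 a polarity protein and Grhl2 a factor that opposes ZEB1. Cdh1, Epcam, Cldn3 and Cldn7 were among those with no promoter peak in either list.

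Related family genes were open in both lists in 4 of 12 cases, and 6 had no promoter peak. Foxc2 (136 and 61 in biosamples 1 and 2), Prrx1 (137 and 60), Scx (100 and 25) and Prrx2 (95 and 15) were open. Foxc2, Prrx1 and Prrx2 are mesenchymal factors, and Scx is a helix-loop-helix factor of tendon. Scrt2, Hand1, Hand2 and Ferd3l were among those with none. Ferd3l is the nearest protein-coding neighbour upstream of Twist1. The peak of the Twist1 window closest to the Ferd3l start site, at chr12:33926876-33927025 in biosample 1 (score 56, not shared), lay at -1.47 kb from it.

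The microRNAs that repress Zeb1 and Zeb2, and that ZEB proteins repress in turn, are shown with their seeds (bases 2 to 8) in capitals, because the seeds group the genes by target. Sequences are mature microRNAs from RefSeq (GRCm38.p6), 5′ to 3′.
mmu-miR-200b-3p: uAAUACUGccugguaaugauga
mmu-miR-200c-3p: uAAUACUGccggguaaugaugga
mmu-miR-429-3p: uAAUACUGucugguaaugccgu
mmu-miR-200a-3p: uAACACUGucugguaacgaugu
mmu-miR-141-3p: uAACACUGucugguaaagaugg
mmu-miR-205-5p: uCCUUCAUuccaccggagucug

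miR-200b, miR-200c and miR-429 share the seed AAUACUG, miR-200a and miR-141 share AACACUG, and miR-205 has CCUUCAU. Of their 6 genes, 0 had a peak within 1000 bp of the annotated start in both lists. Mir141 (score 113), Mir200a and Mir200b (37 each, where the list median was 65) had one in biosample 1 alone, and Mir429, Mir200c and Mir205 had none. Mir200a, Mir200b and Mir429 lie close together on chromosome 4, and Mir141 and Mir200c on chromosome 6, so 1 peak can count for more than 1 gene. The share over all microRNA genes was not computed, so these counts have no background. The annotated start of a microRNA gene is that of its hairpin, which can lie far from the start of its primary transcript.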

How the data were processed

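DNase-seq of 3T3-L1 cells was used, from 4 libraries of 2 biosamples. Per the labels, the authors made 1 alignment per biosample on mm10 and called peaks and hotspots on it, which leaves no list per library. Which aligner and caller made them is not given in the sources used here. Each deposited peak has a score, a whole number up to 150 that those sources do not define; it served to place a peak within its own list (percentile of tied ranks). The deposited hotspots carry a −log10 q value from 1.30 to a cap of 100, reached by 49.4% and 42.8% of them, so they were not ranked. Columns of unmapped per-sample values numbered 0.

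Genes and 54355 protein-coding start sites came from GENCODE M21, and no interval ran past the chromosome lengths of GRCm38.p6, whose chromosomes (1 to 19, X and Y used) are those of mm10. Peaks on these chromosomes numbered 298212 in biosample 1 and 97260 in biosample 2. Promoter peaks lay within 1000 bp of a start site, distal peaks beyond that, and a shared peak overlapped 1 bp or more of a peak in the other list. Overlaps, ranks and motif matches were computed with Python 3.11.15, numpy 2.4.6 and pandas 2.3.3 and tested on simulated intervals. The members, gene lists and motifs were chosen with earlier results of these data known.

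All 7 members are named, each with its strongest promoter peak per list, its 3 strongest shared distal peaks by mean percentile, its widest hotspots and, where ties were few, its neighbours in rank by distal peaks. Of each gene list at most 4 open genes with the highest mean percentile and at most 4 without a peak are named. No test was run, because each biosample has 1 list. Alternatives were other windows, flanks, overlaps and start sites, shorter lists and other motif windows.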

Additional observations from a re-analysis of the deposited data

How the results depend on the processing

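The 7 members were open in both lists with a promoter window of 2000 bp, with the most upstream start site alone, with hotspots, with a shortened biosample 1 list and in each list alone; 6 were with a window of 500 bp (without Snai3) and in the stronger 50% of each list (without Zeb1). Counts followed the rule that drew them. The 269 window peaks of biosample 1 became 101 in gene bodies alone, 178 with flanks of 20000 bp, 438 with 100000 bp and 122 when the list was shortened to as many of its strongest peaks as biosample 2 had. Gene bodies and flanks of 20000 bp gave 27 and 62 for the 95 window peaks of biosample 2, 30 and 57 for its 88 hotspots, and 70 and 120 for the 194 hotspots of biosample 1, which became 327 with 100000 bp. The 467 nearest distal peaks of biosample 1 became 124 with start sites of genes of every type, 250 in the stronger 50% and 156 in the shortened list, and the 154 of biosample 2 became 43 and 74 under the first pair of settings. In the shortened list 66.4% of window peaks were shared, in place of 32.0%. Stronger peaks were shared more often anywhere, with 60.4%, 84.3% and 94.6% of all biosample 1 peaks shared in score deciles 8, 9 and 10. The share over all peaks of the shortened list is not given here, so the rise cannot be read as a trait of these genes. The share of the members' distal peaks with CACCTG, 9.21%, was 5.14% in the peak interval and 19.5% in 400 bp, beside 7.65%, which is above the members' interval (3.48 to 7.53), and 20.8% of all distal peaks. With shared distal peaks alone the members' share was 10.7% (6.6 to 16.9), above the 9.7% of all shared distal peaks, which lay inside the interval. Of single genes' values, 40 of 42 for promoter peaks stayed the same, and 11 of 35 and 12 of 28 for window peaks and 10 of 28 and 9 of 21 for nearest distal peaks of biosamples 1 and 2 stayed within 1.5 times. Fewer intervals or less sequence enter each smaller count by construction. Leaving out single libraries could not be run and no paired analysis was possible because each list pools its biosample's libraries and no result comes from a test. Depth was unknown, so the length of the lists limits every difference between them.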

Other observations

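Open sites of middle strength around Twist2 and Snai1 were seldom found in biosample 2. Of the 108 window peaks of the 7 genes in biosample 1 and in score deciles 6 to 8, 17 met a biosample 2 peak, which is 15.7% (10.1 to 23.8), against 36.5% of the peaks of those deciles in the whole list. Twist2 had 24 such peaks with 0 shared and Snai1 28 with 1 shared, while Zeb2 had 21 with 9 shared. At Zeb1 2 of 17, at Snai2 1 of 9, at Snai3 2 of 5 and at Twist1 2 of 4 were shared. Without Twist2 and Snai1 it was 16 of 56, or 28.6% (18.4 to 41.5), an interval that held the share of the whole list. In deciles 9 and 10, 68 of 80 window peaks were shared, or 85.0%, against 89.6% of the whole list. The deciles, and the genes left out, were picked after their values were seen.

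Window peaks often stood beside a stronger one. In deciles 6 to 8, 58.3% of the window peaks had a stronger peak of the same list within 1000 bp, against 35.9% in the whole list. Among peaks with such a neighbour 14.3% of the windows' and 23.2% of the whole list's were shared. Among those without one it was 17.8% in the windows, against 43.9% in the whole list. The part of stronger neighbours in the sharing was not tested.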
